A study of Triticum aestivum with 16 samples.

Results

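The genes examined were 6 identifiers of bread wheat, the wheat orthologs of rice SPL14 and of rice SPL17. They were 6 of the 120744 identifiers listed for each library, and they were chosen by identifier. The SPL14 orthologs were TraesCS7A02G246500 (SPL14-7A), TraesCS7B02G144900 (SPL14-7B) and TraesCS7D02G245200 (SPL14-7D), 1 copy on each group 7 chromosome. The SPL17 orthologs were TraesCS5A02G265900 (SPL17-5A), TraesCS5B02G265600 (SPL17-5B) and TraesCS5D02G273900 (SPL17-5D), 1 copy on each group 5 chromosome. Chromosomes were read from the identifiers, and the names rest on published orthology, since neither the files nor the reference table pair these identifiers with names.

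Messenger RNA was sequenced from 16 libraries in 8 groups of 2. In the cultivar ZM7698 (Zhengmai7698), shoot apices and axillary buds measuring 1.0 to 2.0 cm were taken at 2 weeks from M6 and from WT. M6 is a hexa-mutant carrying mutations in all 3 copies of TaSPL7 and all 3 copies of TaSPL15, so every M6 library had both genes mutated. In the cultivar AK58 (AiKang58), buds of the same length came from plants of 6 weeks that had spent 30 days in the cold at 4 °C, and apices, leaves and roots came from plants of 2 weeks. AK58 buds therefore differed from the other AK58 tissues in age and cold as well as in organ. All plants had 16 h of light at 22 °C and 8 h of dark at 19 °C. The numbering of SPL genes differs between wheat papers, and the sources used here do not say whether any of the 6 identifiers is among the genes mutated in M6. The genotype was not checked on the targeted genes. The files name no genes, so tissues were not checked against marker genes other than the 3 TB1 copies described with the results.

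SBP-box (SPL) proteins are plant transcription factors with a zinc-binding DNA domain. In rice, SPL14 and SPL17 transcripts are cut under the guidance of the microRNA miR156, which is abundant in juvenile shoots, and SPL14 (also known as IPA1) limits the number of tillers and promotes branching of the panicle. Tillers are side shoots that grow from axillary buds, and rice SPL14 protein binds the promoter of TB1, a repressor of bud outgrowth. Bread wheat is hexaploid, so each gene is usually present as 3 homoeologs, on the A, B and D subgenomes.

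The AK58 and ZM7698 values are in different units, so the 8 libraries of a cultivar were fitted apart from those of the other. AK58 values are whole reads divided by 1 factor per library, called normalised reads here, from libraries of between 51497044 and 79585209 recovered reads. In them 1 read equals between 0.721 and 1.10 normalised reads, and they are not corrected for gene length. ZM7698 values are TPM (a share of all transcripts on a fixed total), which are corrected for length but keep no depth. The replicates correlated least in AK58 root, at 0.77 across genes, against 0.965 to 0.98 in the other AK58 groups and 0.947 to 0.982 in ZM7698. The labels do not say whether the 2 libraries of a group are from separate plants. P-values cover no more than the spread between these libraries, which may be technical. A gene was called different when limma's adjusted p was under 0.05 and the log2 fold change of value + 1 was at least 1 in size.

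The M6 genotype was set against WT in the apex and in the bud of ZM7698. Of the 6 copies, SPL14-7D rose in M6 in both tissues, and no other copy was called in either direction. SPL14-7D had 16.5 and 16.2 TPM in M6 apices, against 3.03 and 2.93 TPM in WT apices. It had 23.0 and 19.7 TPM in M6 buds, against 1.60 and 2.21 TPM in WT buds. All 4 M6 libraries stood above all 4 WT libraries, with no overlap. Of all genes tested, 17.4% were higher in M6 apices without overlap and 16.5% in M6 buds. The share with no overlap over both tissues together was not computed.

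The means of SPL14-7D were 16.3 ± 0.254 TPM in M6 apices and 2.98 ± 0.0715 TPM in WT apices (SD, n = 2 each), a 5.48-fold difference. The limma log2 fold change was 2.12 ± 0.14 (SE), with a limma adjusted p of 0.00625. In buds the means were 21.4 ± 2.36 TPM in M6 and 1.91 ± 0.426 TPM in WT (SD, n = 2 each), an 11.2-fold difference, and the log2 fold change was 2.95 ± 0.14 with a limma adjusted p of 0.00119. Thus 1 of 6 copies was called higher in the apex, where 0.0786% of all 50878 genes tested were called higher, and 1 of 6 in the bud, where the share was 0.0806%. The apex call was lost when any 1 of the 4 apex libraries was left out: the limma adjusted p for SPL14-7D was 0.136 without M6 replicate 1, 0.115 without M6 replicate 2, 0.0572 without WT replicate 1 and 0.0927 without WT replicate 2, while the log2 fold change stayed between 2.11 and 2.14. The bud call held without each of the 8 libraries in turn, and was lost when the 4 bud libraries were fitted alone, at a limma adjusted p of 0.0772.

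**Figure D1:**
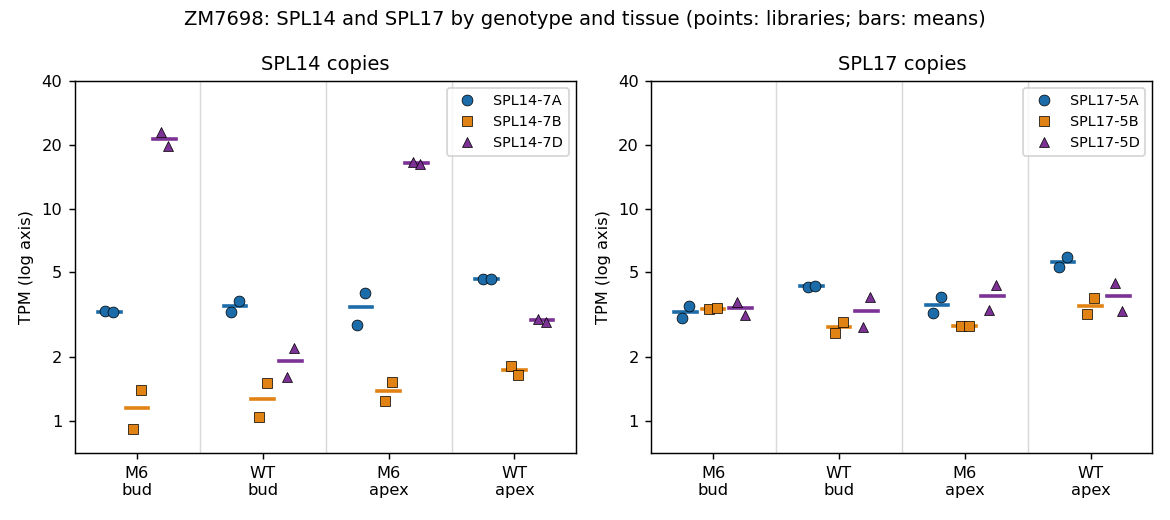
TPM of the SPL14 copies and the SPL17 copies in each ZM7698 library, by group, on a log axis. Each point is 1 library (n = 2 per group) and each bar a group mean. SPL14-7D sits between 16.2 and 23.0 TPM in the 4 M6 libraries and between 1.60 and 3.03 TPM in the 4 WT libraries, and the other 5 copies between 0.912 and 5.91 TPM in all 8 libraries.

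In the order of levels, SPL14-7D was highest in M6 buds, then M6 apices, then WT apices, then WT buds. No 2 of these groups overlapped, and the share of all genes with such an order was not computed. Its mean exceeded that of 83.1% of the genes tested in M6 apices, against 36.2% in WT apices, and 87.0% in M6 buds, against 24.8% in WT buds. The bud exceeded the apex in M6 and fell below it in WT. The difference of the M6 effect between bud and apex was 0.82 ± 0.20 on the log2 scale (limma interaction term), with an unadjusted p of 0.00468 and a limma adjusted p of 0.413. No gene of 50878 (0%) passed the adjusted threshold for that interaction, and 4105 had an unadjusted p under 0.05, 2 of them among the 6 copies.

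Among the genes called higher in M6, SPL14-7D ranked 17th of 40 by log2 fold change in the apex and 12th of 41 in the bud. The identifier that comes next to it in order on chromosome 7D, TraesCS7D02G245100, was also called higher in M6. This identifier was picked out after its values were seen. It averaged 12.8 ± 0.163 TPM in M6 apices and 3.13 ± 0.280 TPM in WT apices, and 17.0 ± 1.91 TPM in M6 buds and 2.42 ± 0.357 TPM in WT buds (SD, n = 2 each). The limma log2 fold changes were 1.74 ± 0.13 in the apex (limma adjusted p of 0.0112) and 2.39 ± 0.13 in the bud (limma adjusted p of 0.00255). Of the 2432 genes tested on chromosome 7D, 2 were called in the apex and 3 in the bud, these neighbours included. Its calls were not recomputed with libraries left out. Identifier order is not distance, and no coordinates were used.

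The other SPL14 copies were not called between M6 and WT in either tissue. SPL14-7A had 2.83 and 4.01 TPM in M6 apices, against 4.65 and 4.65 TPM in WT apices. In buds it had 3.28 and 3.25 TPM in M6, against 3.25 and 3.68 TPM in WT. The apex groups did not overlap, with M6 lower, as for 29.2% of all genes tested, and the bud groups did overlap.

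SPL14-7B, the copy with the lowest mean TPM of the 6 in every group, had 1.23 and 1.51 TPM in M6 apices, against 1.82 and 1.64 TPM in WT apices. In buds it had 0.912 and 1.39 TPM in M6, against 1.03 and 1.50 TPM in WT. M6 apices were the lower without overlap, as for 29.2% of all genes tested, and the bud groups overlapped.

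SPL17-5A, the SPL17 copy with the highest mean in WT, had 3.22 and 3.83 TPM in M6 apices, against 5.29 and 5.91 TPM in WT apices. In buds it had 3.04 and 3.49 TPM in M6, against 4.29 and 4.30 TPM in WT. In both tissues the M6 libraries lay below the WT libraries without overlap, as for 29.2% of all genes tested in apices and 19.7% in buds. The log2 fold change in the apex was -0.55 ± 0.12, with a limma adjusted p of 0.359, and in the bud it was -0.31, so neither was a call.

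SPL17-5B had 2.79 and 2.80 TPM in M6 apices, against 3.19 and 3.78 TPM in WT apices. In buds it had 3.35 and 3.38 TPM in M6, against 2.59 and 2.93 TPM in WT. M6 was thus the lower in the apex and the higher in the bud, without overlap in either, and neither difference was a call. Of all genes tested, 29.2% were lower in M6 apices without overlap and 16.5% were higher in M6 buds.

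SPL17-5D had 3.33 and 4.38 TPM in M6 apices, against 4.45 and 3.28 TPM in WT apices. In buds it had 3.62 and 3.15 TPM in M6, against 2.76 and 3.83 TPM in WT. The groups overlapped in both tissues. Over the 5 copies other than SPL14-7D, log2 fold changes of M6 over WT ran from -0.55 to -0.00026 in the apex and from -0.31 to 0.22 in the bud.

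**Figure D2:**
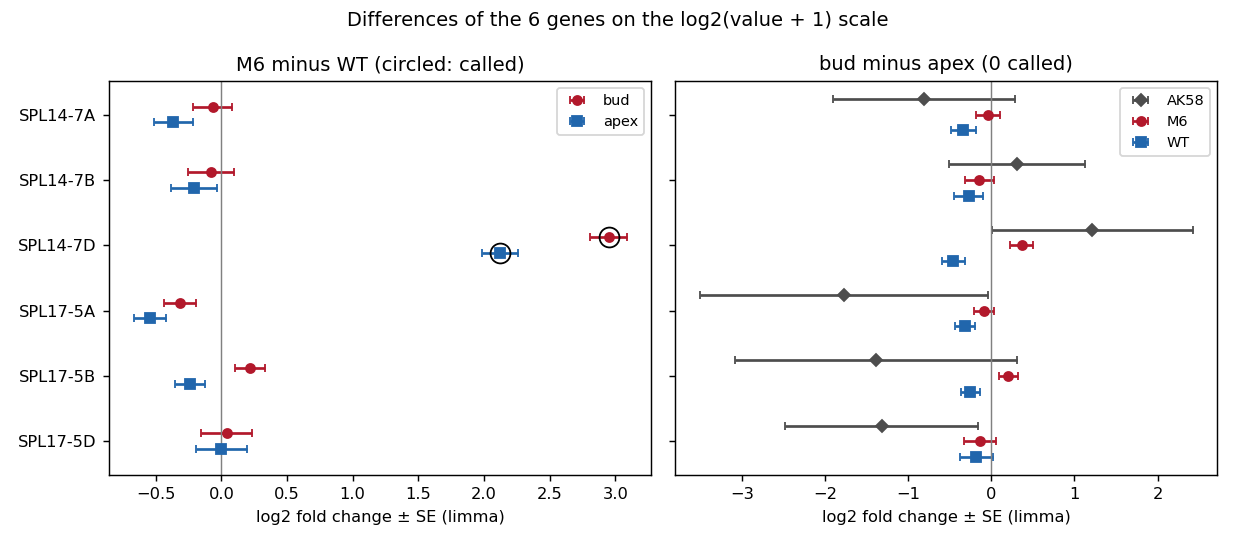
Log2 fold changes of the 6 copies from limma, on log2 of the value + 1, for M6 minus WT in the bud and apex of ZM7698 (left) and for bud minus apex in AK58, M6 and WT (right). Each point is 1 copy in 1 comparison, circles mark calls, and bars are standard errors. At left, SPL14-7D stands at 2.12 in the apex and 2.95 in the bud for M6 over WT, and the other copies stay between -0.55 and 0.22, while no copy was called at right.

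Because TPM are corrected for length, levels of the copies could be set against each other within each ZM7698 library. The D copy made up 80.3% and 74.5% of summed SPL14 TPM in M6 apices, against 31.9% and 31.8% in WT apices. In buds it made up 84.6% and 80.9% in M6, against 27.2% and 29.9% in WT. In WT the A copy held the largest share of SPL14, between 48.9% and 55.2%, and in M6 the D copy did.

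Summed SPL14 was 21.1 ± 0.781 TPM in M6 apices and 9.36 ± 0.195 TPM in WT apices, and 25.8 ± 2.05 TPM in M6 buds and 6.64 ± 1.06 TPM in WT buds (SD, n = 2 each). Summed SPL17 was 10.2 ± 1.18 TPM in M6 apices and 12.9 ± 0.0192 TPM in WT apices, and 10.01 ± 0.00965 TPM in M6 buds and 10.3 ± 1.00 TPM in WT buds (SD, n = 2 each). The sum of SPL14 was 2.08 times the sum of SPL17 in M6 apices and 0.723 times in WT apices, and 2.57 times in M6 buds and 0.640 times in WT buds. The 3 SPL17 copies were closer to equal, with shares in single libraries of 30.4% to 45.6% for the A copy, 24.6% to 33.7% for the B copy and 25.3% to 39.8% for the D copy.

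Over all 8 ZM7698 libraries, 7 ratios between copies or sums were tested with an exact two-sided sign-flip permutation test, with Benjamini-Hochberg adjustment over the 7. SPL14-7A exceeded SPL14-7B in 8 of 8 libraries, by a mean log2 ratio of 1.43 ± 0.22 (SD, exact adjusted p = 0.0273). SPL14-7B lay below SPL14-7D in 8 of 8 libraries, with a mean log2 ratio of -2.30 ± 1.76 (SD, exact adjusted p = 0.0273). That mean and its p pool genotypes that differ, and the test takes libraries that share tissue and genotype as separate units. The mean was -3.58 in M6 apices, -0.78 in WT apices, -4.24 in M6 buds and -0.59 in WT buds, and -0.69 over the 4 WT libraries. The other 5 ratios did not pass, among them SPL17-5A over SPL17-5B, which was above 1 in 7 of 8 libraries (mean log2 ratio 0.40 ± 0.33, exact adjusted p = 0.0547). With 8 libraries the smallest p is 0.0078. With 1 library left out, 3 ratios passed without M6 bud replicate 1 and 0 without any other library, where a ratio at the smallest p could pass only if at least 3 ratios shared it.

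The change of each ratio between M6 and WT was examined with an exact two-sided permutation of genotypes within tissue, added after the data were seen, in which 36 arrangements allow no p under 0.0556. On the log2 scale, SPL14-7A over SPL14-7D differed by -3.25 and SPL14-7B over SPL14-7D by -3.22 between M6 and WT, each at that smallest exact p. SPL14-7A over SPL14-7B differed by -0.03 (exact p = 0.833). For SPL17, the 5A copy over the 5B copy differed by -0.52 and over the 5D copy by -0.56, each at the smallest exact p, and the 5B copy over the 5D copy by -0.04 (exact p = 0.944). Quantification of near-identical copies can move reads between homoeologs, so levels of single copies and their ratios carry that uncertainty.

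**Figure D3:**
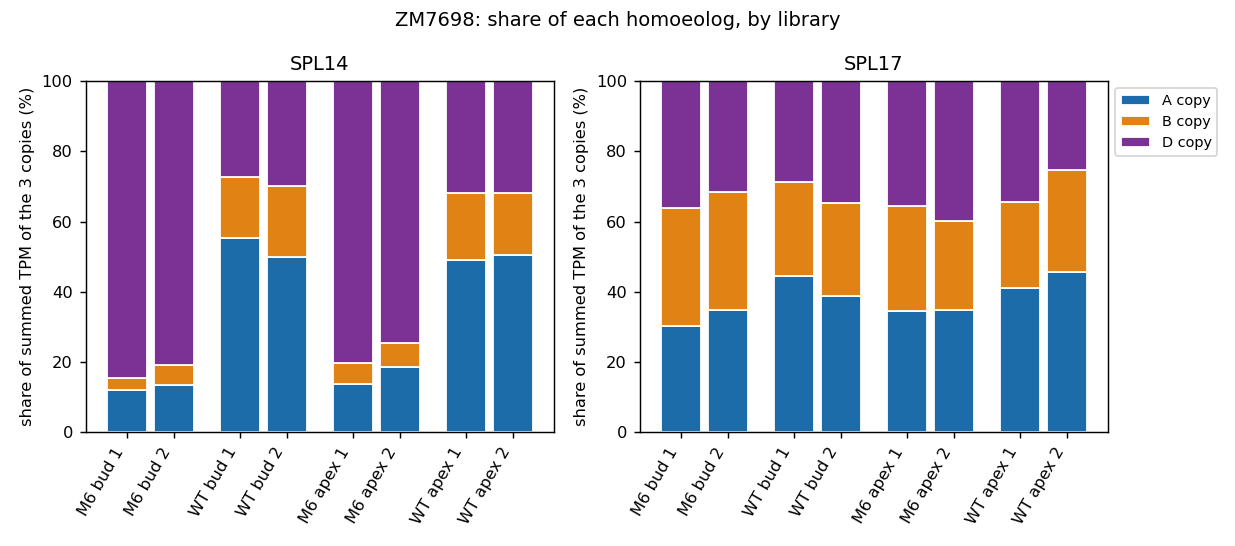
Share of summed TPM held by the A, B and D copies of SPL14 and of SPL17 in each ZM7698 library, in percent. Each bar is 1 library. The D share of SPL14 lies between 74.5% and 84.6% in the M6 libraries and between 27.2% and 31.9% in the WT libraries.

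The bud was next set against the apex within each genotype of ZM7698. In WT the mean of each of the 6 copies was lower in the bud, 5 of them without overlap, as were 32.3% of all genes tested. None was called by limma, against 2.50% of all genes tested called in either direction. In M6 the means of SPL14-7D and SPL17-5B were higher in the bud without overlap, as were 19.8% of all genes tested, and those of the other 4 were lower with overlap. Again limma called none, against 0.0884% of all genes tested. The limma log2 fold changes ran from -0.15 to 0.36 in M6 and from -0.46 to -0.18 in WT. At an unadjusted p under 0.05 there were 1 of 6 copies in M6, against 11.7% of all genes, and 2 of 6 in WT, against 17.3%. In bulk tissue, fewer cells of a type and less RNA per cell cannot be told apart.

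In AK58, all 6 copies were compared between buds, apices, leaves and roots. Apices and buds carried most of the signal of both genes, and leaf libraries had between 0 and 15 reads of any copy. These values are RNA levels in whole organs, and AK58 buds differed from the other tissues in age and cold as well. SPL14-7A had 120 and 108 normalised reads in buds, 185 and 219 in apices, 0 and 7.40 in leaves and 0 and 1.88 in roots. Apices, then buds, stood far above leaves and roots, and the leaf and root values overlapped.

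SPL14-7B had 98.0 and 87.9 normalised reads in buds, 56.0 and 100.1 in apices, 0 and 1.85 in leaves and 8.23 and 24.5 in roots. Buds and apices overlapped, and roots lay between these and leaves without overlap. Leaves lay below roots without overlap for 31.7% of all genes tested. SPL14-7D had 33.9 and 24.6 normalised reads in buds, 15.0 and 9.34 in apices, 0 and 13.9 in leaves and no read in either root library. Buds were the highest without overlap, and apices overlapped with leaves, where 1 library held all 15 reads. Buds lay above apices without overlap for 33.1% of all genes tested.

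SPL17-5A had 102 and 86.3 normalised reads in buds, 282 and 370 in apices, 2.20 and 0.925 in leaves and 0 and 54.6 in roots. SPL17-5B had 79.3 and 82.2 normalised reads in buds, 183 and 248 in apices, 2.20 and 3.70 in leaves and 0 and 49.9 in roots. SPL17-5D had 96.6 and 81.3 normalised reads in buds, 155 and 320 in apices, 2.20 and 5.55 in leaves and 4.49 and 58.3 in roots. For each SPL17 copy the order was apices, then buds, without overlap, and both lay above every root and leaf library. Of all genes tested, 39.5% were lower in buds than in apices without overlap. Buds lay above leaves without overlap for 41.2% and above roots for 32.5%. Apices lay above leaves without overlap for 43.4% and above roots for 30.8%.

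The root libraries differed from each other for SPL17: replicate 2 held a summed level of 163 normalised reads and replicate 1 held 4.49. For summed SPL14 the levels were 26.3 in replicate 2 and 8.23 in replicate 1. In leaves, the 2 reads of SPL17-5A in replicate 1 have a 95% Poisson interval of 0.266 to 7.93 normalised reads, which covers counting error only.

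**Figure D4:**
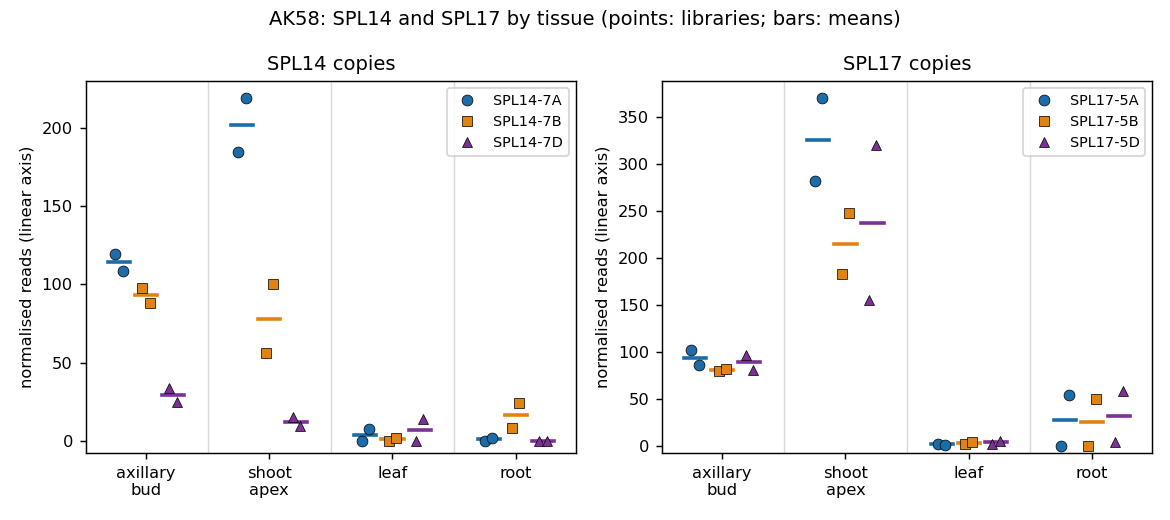
Normalised reads of the SPL14 copies and the SPL17 copies in each AK58 library, by tissue. Each point is 1 library (n = 2 per tissue), and levels of different copies are not comparable because the values are not corrected for length. Apex and bud libraries lie high, leaf libraries low, and the 2 root libraries differ most for SPL17.

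In the bud against the apex, none of the 6 copies was called by limma, where 17.8% of all 69525 genes tested were called in either direction. None had an unadjusted limma p under 0.05, against 33.3% of all genes tested. edgeR and DESeq2 on the recovered reads also called 0. The means of the SPL17 copies were 93.9 ± 10.8 normalised reads in buds and 326 ± 62.0 in apices for 5A, 80.7 ± 2.05 and 215 ± 45.9 for 5B, and 88.9 ± 10.8 and 238 ± 116 for 5D (SD, n = 2 each). The log2 fold changes were -1.78 ± 1.73 for SPL17-5A, -1.39 for SPL17-5B and -1.32 for SPL17-5D. These errors share the spread of all 4 tissues, the root libraries included. With the bud and apex libraries alone, limma called all 3 SPL17 copies lower in buds, at adjusted p of 0.00591 for SPL17-5A, 0.0158 for SPL17-5B and 0.0491 for SPL17-5D. Across the 12 other settings, this fit included, 12.4% to 38.9% of all genes tested were called in either direction. Without both root libraries, also 1 of these settings, limma called SPL17-5A (limma adjusted p = 0.0212) and SPL17-5B (limma adjusted p = 0.045) lower. Calls also appeared without either root library alone, while the share of all genes called moved with single libraries as well.

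SPL14 behaved unevenly between bud and apex of AK58, and none of its copies was called. SPL14-7A was the lower in buds without overlap (log2 fold change -0.81 ± 1.10), SPL14-7B overlapped (0.31), and SPL14-7D was the higher in buds without overlap (1.22 ± 1.21). Of all genes tested, 39.5% were lower and 33.1% were higher in buds without overlap. The D copy held 13.5% and 11.2% of summed SPL14 normalised reads in buds, against 5.88% and 2.84% in apices, on values not corrected for length.

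In the apex against the leaf, 5 of 6 copies were called higher in the apex, where 20.1% of all genes tested were called higher. Their log2 fold changes ran from 5.49 for SPL14-7B to 7.03 for SPL17-5A, with limma adjusted p from 0.0039 to 0.036. Sizes against the few reads of leaves depend on the 1 added before the log. SPL14-7D was not called (log2 fold change 1.74, limma adjusted p = 0.282). The count fell without leaf replicate 1 and without either apex library, and the share of all genes called moved with single libraries too.

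In the bud against the leaf, SPL14-7A (log2 fold change 5.31 ± 1.10, limma adjusted p = 0.0199), SPL14-7B (5.80 ± 0.82, limma adjusted p = 0.00728) and SPL17-5D (4.29 ± 1.16, limma adjusted p = 0.0404) were called higher, 3 of 6 copies where 11.2% of all genes were called higher. The 3 called copies again passed the filter through tissues other than leaf. All 6 copies were higher in buds without overlap, as were 41.2% of all genes tested. All of these calls were lost without leaf replicate 1 or either bud library, and more copies were called without either root library. The share of all genes called moved with single libraries too.

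In the apex against the root, SPL14-7A was called higher (log2 fold change 6.90 ± 1.10, limma adjusted p = 0.00478), 1 of 6 copies where 14.0% of all genes were called higher. The other 5 were higher in the apex without overlap, as were 30.8% of all genes tested, and their limma adjusted p ran from 0.0524 to 0.0709. The count was 2 without either leaf library, 3 without root replicate 1 and 5 without root replicate 2.

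In the bud against the root, the 3 SPL14 copies were called higher and no SPL17 copy was, 3 of 6 where 14.2% of all genes were called higher. The log2 fold changes were 6.08 ± 1.10 for SPL14-7A (limma adjusted p = 0.00765), 2.61 ± 0.82 for SPL14-7B (limma adjusted p = 0.0493) and 4.90 ± 1.21 for SPL14-7D (limma adjusted p = 0.023). SPL14-7D averaged at least 11.6-fold higher in buds, set against a floor of 3 reads in each root library. The limma adjusted p of the SPL17 copies ran from 0.149 to 0.171. The count was 6 without root replicate 2, 0 without bud replicate 1 and 1 without bud replicate 2. The call of SPL14-7B was lost in 7 of 8 fits that left out 1 library, all but the fit without root replicate 2 (limma adjusted p up to 0.198), and under 4 of 11 other settings (adjusted p up to 0.21). Whether the SPL14 and SPL17 copies differ in this comparison was not tested.

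In the leaf against the root, SPL14-7B was called lower in leaves (log2 fold change -3.18 ± 0.82, limma adjusted p = 0.0355), 1 of 6 copies where 11.4% of all genes were called lower. This call was lost without leaf replicate 2, without root replicate 2 and without any 1 of the apex or bud libraries. More copies were called without root replicate 1, and the share of all genes called moved with single libraries too. The other 5 copies overlapped between leaves and roots.

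The 3 copies of TB1, the gene whose promoter rice SPL14 binds, were described beside the SPL genes. In AK58, TB1 had no read in any leaf or root library, and all 3 copies were called higher in buds and in apices than in leaves and in roots. The copies passed the filter through bud and apex libraries only, so these calls add no support to the absence of reads. Of all genes tested, 11.2% were called higher in buds than in leaves and 14.2% than in roots. In apices, 20.1% were called higher than in leaves and 14.0% than in roots. TB1-4A averaged 19.8 ± 5.64 normalised reads in buds and 52.3 ± 20.8 in apices (SD, n = 2 each), and no TB1 copy was called between them. In ZM7698 buds, all 3 copies were higher in M6 than in WT without overlap, as were 16.5% of all genes tested. In apices the M6 and WT libraries overlapped for all 3. TB1-4B, the copy with the highest TPM, had 27.3 and 20.4 TPM in M6 buds, against 15.1 and 17.2 TPM in WT buds. Whether TB1 levels followed those of SPL14 was not tested. TB1-4B was called higher in the bud than in the apex in M6 (log2 fold change 3.06 ± 0.23, limma adjusted p = 0.0288) and in WT (2.25 ± 0.23, limma adjusted p = 0.0209), and TB1-4A was called in WT as well (1.18 ± 0.21, limma adjusted p = 0.0366). The M6 call of TB1-4B was lost without either WT bud library, either M6 apex library or M6 bud replicate 1 (limma adjusted p from 0.0594 to 0.169), and its WT call without WT apex replicate 2 or either WT bud library (0.0904 to 0.166). The call of TB1-4A was lost without any 1 of the WT libraries or of the M6 apex libraries (0.0783 to 0.216). Among 9 other settings, 3 lost the M6 call of TB1-4B, 1 its WT call and 4 the call of TB1-4A. None of the 3 was called between M6 and WT: the log2 fold changes in the bud were 0.72, 0.52 and 0.46 for the A, B and D copies, and in the apex they ran from -0.29 to -0.0047.

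The copies were also compared in how they varied over libraries, on log2 of the value + 1. Over the 8 AK58 libraries the 3 SPL17 copies correlated with each other at 0.967 to 0.990, and the SPL14 copies at 0.594 to 0.876. Over the 8 ZM7698 libraries the SPL17 copies correlated at 0.038 to 0.330, and the SPL14 copies at -0.473 to 0.777. Of the 9 pairs of an SPL14 and an SPL17 copy there, the lowest was SPL14-7D with SPL17-5A, at -0.80. The highest was SPL14-7A with SPL17-5A, at 0.85. SPL14-7D correlated at 0.11 with SPL17-5B and at 0.12 with SPL17-5D. These values describe libraries that share tissue and genotype.

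Among 49256 identifiers that passed the filter in both sets, the patterns most like the summed levels were sought by the smaller of the AK58 and ZM7698 correlations, each over 8 libraries. For summed SPL14 they were TraesCS5B02G500600 (0.922 in AK58, 0.918 in ZM7698), TraesCS4D02G233700 (0.910, 0.964) and TraesCS5B02G243500 (0.907, 0.937). TraesCS5B02G500600 had 0.233 to 0.460 TPM in WT libraries and 1.18 to 1.28 TPM in M6 libraries. It thus passed the ZM7698 filter through M6 libraries only. For summed SPL17 they were TraesCS5D02G264000 (0.975, 0.953), TraesCS2B02G422000 (0.954, 0.952) and TraesCS2D02G401100 (0.957, 0.948). These are the highest of 49256 candidates over few libraries. In both sets, 6 identifiers exceeded 0.9 for summed SPL14 and 18 for summed SPL17. Shared regulation was not tested.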

How the data were processed

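The ZM7698 values are TPM computed by the authors, and the deposited AK58 values are a signal in which whole reads were divided by 1 factor per library. Whole reads were recovered from 100% of AK58 values, within 0.001 reads. HISAT2 2.0.5, StringTie 1.3.3b and Trimmomatic are named per the submitters' processing notes, and the build of the genome was not stated in these sources. Each set was fitted with limma 3.58.1 (R 4.3.3) after adding 1 and taking log2, with a trend on intensity and all 8 libraries in 1 fit, two-sided, with Benjamini-Hochberg adjustment over all genes tested. Genes needed 10 normalised reads (AK58, 69525 tested) or 1 TPM (ZM7698, 50878 tested) in at least 2 libraries, and all 6 copies passed in both sets. In AK58 none of the 6 would have passed without the apex and bud libraries, where they were highest. edgeR 4.0.16 and DESeq2 were run on the recovered reads as alternatives. Only the limma fit was tried on simulated data, without a filter and with large changes planted in genes of higher level. That trial does not cover small changes or low levels. The depth of ZM7698 is unknown. Copies, TB1 identifiers, tests and alternatives were chosen with earlier results of these data known. The text names the 6 copies, the 3 TB1 copies and, for each summed level, the 3 identifiers most like it, and also TraesCS7D02G245100, the neighbour of SPL14-7D, chosen after its values were seen. Shares of all genes without overlap between groups were added later. The reference table matched 0 of the identifiers, so no sequence or coordinate was used.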

Additional observations from a re-analysis of the deposited data

Results flagged for a closer look

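Some copies had log2 fold changes of opposite sign under the same contrast in different groups, with no overlap between the libraries compared. Of these differences only TB1-4A in WT was a call. SPL14-7D was higher in the bud than in the apex in M6 (log2 fold change 0.36) and in AK58 (1.22), and lower in WT (-0.46). The difference between M6 and WT was tested as an interaction and did not pass (limma adjusted p = 0.413). The difference between AK58 and WT was not tested, since the cultivars were in separate sets and the AK58 buds were also older and had been in the cold.

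SPL17-5B was higher in the bud than in the apex in M6 (0.20) and lower in WT (-0.25). Set the other way, its M6 over WT difference was -0.24 in apices and 0.22 in buds. The interaction did not pass (limma adjusted p = 0.523).

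TB1-4A was lower in the bud than in the apex in AK58 (-1.33) and higher in WT (1.18), and TB1-4D likewise (-0.89 in AK58, 0.83 in WT). These differences were not tested, for the same reason.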

How the results depend on the processing

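With 2 libraries a group, counts of called copies moved with single libraries and with the groups that shared the fit. The SPL14-7D call in M6 apices held under all 9 other settings (limma adjusted p from 0.00143 to 0.0425). Fitted on the contrasted groups alone, the counts were 3 for AK58 bud over apex, 5 for bud over leaf, 0 for leaf over root and 0 for M6 over WT in the bud. Without both root libraries they were 2 for bud over apex and 5 for bud over leaf. edgeR gave 1 for bud over leaf, 1 for bud over root and 0 for leaf over root, and DESeq2 gave 5 for bud over leaf and 4 for apex over root. Adding 0.1 gave 3 for apex over leaf and 0 for leaf over root, and adding 5 gave 5 for apex over root and 0 for leaf over root. Median centring gave 5 for apex over root. Over the other settings, shares of all genes called in either direction ran from 12.4% to 38.9% for bud over apex. They ran from 18.1% to 49.6% for bud over leaf and 20.5% to 37.1% for bud over root. For apex over leaf they ran from 32.7% to 57.9%, and for apex over root from 17.8% to 37.4%. For leaf over root they ran from 13.4% to 34.7%, and for M6 over WT in the bud from 0.0315% to 0.199%. No ratio passed in WT libraries only, where 4 libraries are too few for the test.

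The main fits did not pair samples by replicate number, and the labels do not say whether same-numbered libraries belong together. Deviations of same-numbered libraries correlated at -0.118 to 0.43 in AK58 and -0.308 to 0.164 in ZM7698. The 0.43 was between AK58 root and apex. With the replicate block, the count was 2 for apex over root, and the other counts of called SPL copies were the same. The bud over apex calls of TB1 were lost with the block: limma adjusted p was 0.0853 for TB1-4B in M6, and 0.054 for TB1-4B and 0.0751 for TB1-4A in WT. TB1-4B in M6 was also lost with no filter (0.0645) and on the contrasted groups alone (0.0796), and TB1-4A in WT with 5 added (0.0555), no filter (0.0723) and the stricter filter (0.0635).

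With 1 library left out, the counts ran from 0 to 2 for AK58 bud over apex, 0 to 5 for bud over leaf, 0 to 6 for bud over root, 1 to 5 for apex over leaf, 1 to 5 for apex over root, 0 to 4 for leaf over root and 0 to 1 for M6 over WT in the apex. The number of ratios that passed ran from 0 to 3.

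Signs turned in few cases, none of them calls. SPL17-5B in leaf over root was 0.40 with 0.1 added. SPL17-5D in M6 over WT apices was 0.00031 with 0.1 added and 0.041 with median centring. In WT libraries only, the log2 ratio of SPL14-7A over SPL14-7D was 0.76 and that of summed SPL14 over summed SPL17 was -0.56. With 1 library left out, log2 fold changes ran in AK58 bud over apex from -0.11 to 0.72 for SPL14-7B and -0.86 to 0.011 for TB1-4B. They ran in apex over leaf from -0.21 to 3.69 for SPL14-7D, and in leaf over root from -0.76 to 2.31 for SPL14-7A, -4.49 to 1.31 for SPL17-5A and -3.71 to 1.95 for SPL17-5B. In WT bud over apex they ran from -0.36 to 0.00029 for SPL17-5D. In M6 bud over apex they ran from -0.23 to 0.16 for SPL14-7A, -0.31 to 0.013 for SPL14-7B, -0.18 to 0.012 for SPL17-5A and -0.30 to 0.016 for SPL17-5D. In M6 over WT they ran from -0.18 to 0.17 for SPL17-5D in the apex, and in the bud from -0.13 to 0.0035 for SPL14-7A, -0.24 to 0.082 for SPL14-7B and -0.14 to 0.22 for SPL17-5D. The causes of these moves were not tested.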
